A study of Mus musculus with 6 samples.

Results

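Ectonucleotidases and purine receptors were followed in cultured macrophages of a knockout genotype for the retinoid X receptors alpha and beta. The set holds 10 protein-coding genes of the 45193 genes in the count table, matched by symbol, with positions in GRCm38 below: Enpp4, Enpp1, Entpd1 and Nt5e, which encode enzymes that cut nucleotides outside the cell, P2rx4, P2rx7, P2ry6 and P2ry12, which encode receptors for nucleotides, and Adora2a and Adora2b, which encode receptors for adenosine. The genes were chosen by name around Enpp4, which was selected on its large fold change between these same libraries, with results of the comparison known. Their differences between genotypes are therefore given as a description with no p-value, and they support nothing by themselves.

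Bone marrow-derived macrophages were grown from mouse marrow for 6 days with 20% serum and 30% L929 conditioned medium, which supplies CSF-1 and so drives macrophage growth, then moved to medium without serum and given the solvent DMSO for 3 hours. Libraries of polyA RNA came from 3 wild-type (WT) cultures and from 3 cultures of the genotype RXRafl/flLysMCre RXRb-/-, and the strain given for both is C57BL/6J. In this knockout, Rxra is removed by a Cre recombinase made from the lysozyme M locus, which is active in myeloid cells, and Rxrb is lost in every cell of the animal. Neither a Cre allele nor a loxP allele is named for the WT cells, and neither age, sex nor pooling of animals is given. Replicates are labelled biological without naming the animals, so every error here measures the spread between these libraries. Values of the libraries of a genotype stand in the order of replicates 1, 2 and 3.

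ATP and other nucleotides leave stressed, dying or activated cells and act on neighbours as signals. P2X receptors are ATP-gated ion channels and P2Y receptors are G protein-coupled receptors for ATP, ADP, UTP, UDP or UDP-sugars. Ectonucleotidases end these signals stepwise, and the adenosine that CD73 releases from AMP acts on its own receptors, of which the products of Adora2a and Adora2b raise cyclic AMP and restrain inflammatory output of macrophages.

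Total counts ran from 7880320 to 14957253 in WT libraries and from 17250051 to 25091019 in knockout libraries, so depth and genotype cannot be told apart by design. Rxrb fell from 66.7 ± 1.86 to 9.27 ± 2.09 CPM (read counts scaled to library size with TMM factors; mean ± SD, n = 3), whereas Rxra stood at 104.1 ± 6.7 and 109.4 ± 4.83 CPM, a whole-gene count that does not check a deletion between loxP sites. Lyz2, whose locus carries Cre, fell from 15258 ± 594 to 28.4 ± 6.12 CPM. The other 7 macrophage markers listed summed to between 6230 and 7217 CPM in WT and between 7148 and 8369 CPM in knockout libraries. Of these 7, Csf1r (log2 fold change 0.40), Itgam (0.65) and Cd14 (1.09) rose, Fcgr1 fell by 0.37 on the log2 scale, and Adgre1, Cd68 and Mertk did not pass. Among them are differences as large as those of P2rx4, P2rx7 and P2ry6 below. Of 8 neutrophil markers 0 rose and 3 fell, with sums of 1077 to 1221 CPM in WT against 984.8 to 1096 CPM in knockout libraries. Markers of B cells, T cells, dendritic cells, mast cells and stroma each summed to at most 14.43 CPM in any library, and those of megakaryocytes to between 72.2 and 112.3 CPM. The B cell sum was 4.83 to 5.81 CPM in WT and 1.71 to 2.85 CPM in knockout libraries, most of it Cd79b, which fell by 1.65 on the log2 scale, and the stromal gene Col3a1 fell by 1.91. Their part in the differences below was not tested, and in bulk RNA fewer cells of a type and less RNA per cell cannot be told apart.

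Of the 10 genes, 9 had enough reads for the fit across all genes, and 4 of these were higher and 1 lower in the knockout at a Benjamini-Hochberg adjusted threshold of 0.05 (edgeR quasi-likelihood test over 12011 genes). Over all tested genes 9.77% were called higher and 9.61% lower, together 19.4%. The higher genes were Enpp4, P2rx7, P2ry6 and P2rx4, and the lower gene was Enpp1. Entpd1, P2ry12, Adora2a and Adora2b did not pass, and Nt5e was too rare to be tested. In 6 of the 9 the values of WT and knockout libraries did not overlap, as was so for 36.9% of all tested genes. Because Enpp4 was picked for its fold change, nothing is read from the members' counts against these shares.

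Levels per length put the receptors P2ry6 and P2rx4 on top in both genotypes. In WT cells P2ry6 stood at 63.1 ± 3.01 CPM per kb of exon, P2rx4 at 37.8 ± 1.55, Entpd1 at 22.8 ± 2.56, P2rx7 at 11.0 ± 0.681 and Adora2b at 8.85 ± 0.795 (SD, n = 3). The other 5 genes lay well below, with Enpp1 at 1.45 ± 0.158, P2ry12 at 0.724 ± 0.401, Adora2a at 0.571 ± 0.274, Enpp4 at 0.16 ± 0.0609 and Nt5e at 0.0677 ± 0.0355 CPM per kb. Neighbours in this WT order did not overlap in their libraries, except P2ry12 and Adora2a. In the knockout the first 5 places were the same, and Enpp4 moved from place 9 to place 6 at 1.48 ± 0.202 CPM per kb, above P2ry12 (1.02 ± 0.0867) and Enpp1 (0.852 ± 0.135), which overlapped each other. Enpp1 moved from place 6 to place 8.

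**Figure D1:**
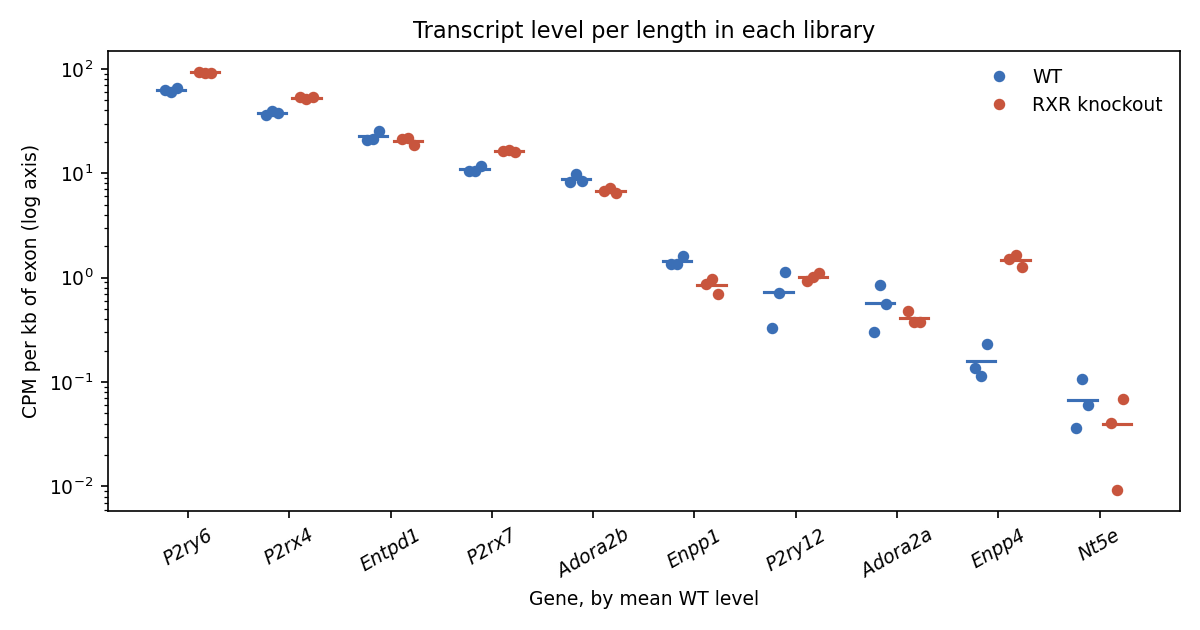
Transcript level of the 10 genes in CPM per kb of exon on a log axis, 1 point per library and a line at the mean of each genotype, ordered by the WT mean. Enpp4 has the widest gap between genotypes among the tested genes, from 0.16 CPM per kb in WT to 1.48 in the knockout, while P2ry6, P2rx4 and P2rx7 show small gaps with tight points.

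Enpp4, an ectonucleotide pyrophosphatase/phosphodiesterase known on endothelium for cutting the dinucleotide Ap3A, had the largest difference of the 10 genes. It read 0.623, 0.522 and 1.05 CPM in the WT libraries and 6.92, 7.58 and 5.76 CPM in the knockout libraries. All knockout libraries lay far above all WT libraries. Its mean went from 0.73 ± 0.278 to 6.75 ± 0.923 CPM (n = 3 each), which is 9.25-fold, and the fitted log2 fold change was 3.09 (SE 0.276). The WT level rests on 26 reads over 3 libraries, against 416 in the knockout, so the size of the ratio is set by few WT reads. Of the WT libraries 2 and of the knockout libraries 3 reached the read level that the filter on low counts asks for. The WT libraries alone would not have passed this filter, so Enpp4 entered the fit through the knockout libraries, where it is high. Without WT replicate 3, the highest WT library, the log2 fold change was 3.53, and after all libraries were thinned to the smallest total it was 2.74.

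Enpp1 (ENSMUSG00000037370, chr10:24637914-24712159, minus strand), the family member that makes pyrophosphate from ATP and also degrades the dinucleotide cGAMP, went the other way. It read 14.01, 13.82 and 16.72 CPM in the WT libraries and 9.02, 9.96 and 7.23 CPM in the knockout libraries. The genotypes did not overlap, and the lowest WT library was at 1.39 times the highest knockout library. Its mean fell from 14.9 ± 1.62 to 8.73 ± 1.39 CPM, a log2 fold change of -0.77 (SE 0.152, n = 3 per genotype).

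The promoters of this pair of related enzymes are shown because the pair moved in opposite directions. Both are the 250 bases before the RefSeq start in GRCm38.p6, on the minus strand and printed in the sense of the gene, at chr17:44105810-44106059 for Enpp4 and chr10:24712160-24712409 for Enpp1. The half-site AGGTCA, the hexamer that retinoid X receptors and their partner receptors bind in pairs, was searched on both strands and would be in capitals. It was in neither window, which says only that these 6 letters are not there. G and C make up 72.8% of the Enpp4 window and 61.2% of the Enpp1 window.
Enpp4: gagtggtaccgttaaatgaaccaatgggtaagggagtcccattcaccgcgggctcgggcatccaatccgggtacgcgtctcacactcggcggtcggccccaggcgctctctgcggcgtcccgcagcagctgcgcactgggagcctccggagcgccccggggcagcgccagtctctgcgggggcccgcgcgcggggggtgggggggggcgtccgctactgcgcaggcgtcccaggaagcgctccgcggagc
Enpp1: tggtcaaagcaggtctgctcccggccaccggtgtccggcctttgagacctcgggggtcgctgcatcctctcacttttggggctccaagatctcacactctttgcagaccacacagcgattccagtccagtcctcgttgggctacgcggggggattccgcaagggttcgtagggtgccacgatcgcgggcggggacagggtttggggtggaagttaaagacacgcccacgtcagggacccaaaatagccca

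Enpp4 lies on chromosome 17 (ENSMUSG00000023961, 44096308 to 44105809 in GRCm38, minus strand), the chromosome of the inactivated Rxrb gene, and the start coordinates of the genes are 10.1 Mb apart. Of 295 tested genes within 10 Mb of Rxrb, 24.7% were past the threshold and 5.76% differed at least 2-fold, against 19.2% and 4.07% of 11381 tested genes on all other chromosomes. Among 101 genes between 10 and 15 Mb from Rxrb, the interval that holds Enpp4, the shares were 15.8% and 3.96%. Enpp4 lies just beyond the 10 Mb edge, and the 4 genes that differed at least 2-fold in its interval include Enpp4 and its neighbour Runx2. On the rest of chromosome 17 the shares were 21.5% and 3.86% of 233 genes. Within 10 Mb, 25 of the genes past the threshold were higher and 48 lower. Whether the position bears on the Enpp4 level was not tested. The neighbour Enpp5, whose start coordinate lies at -17.5 kb from that of Enpp4, had 15 reads over the WT and 48 over the knockout libraries, with a log2 fold change of 0.79 (SE 0.446) that did not pass. Of the other tested genes within 500 kb, Slc25a27 (0.16, SE 0.468) and Cyp39a1 (-0.67, SE 0.38) did not pass, and Runx2, a transcription factor gene best known from bone, fell from 9.83 ± 1.0 to 4.69 ± 0.854 CPM (-1.07 on the log2 scale, edgeR adjusted p = 0.00103). No exon of Enpp4 overlaps an exon of another annotated gene.

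**Figure D2:**
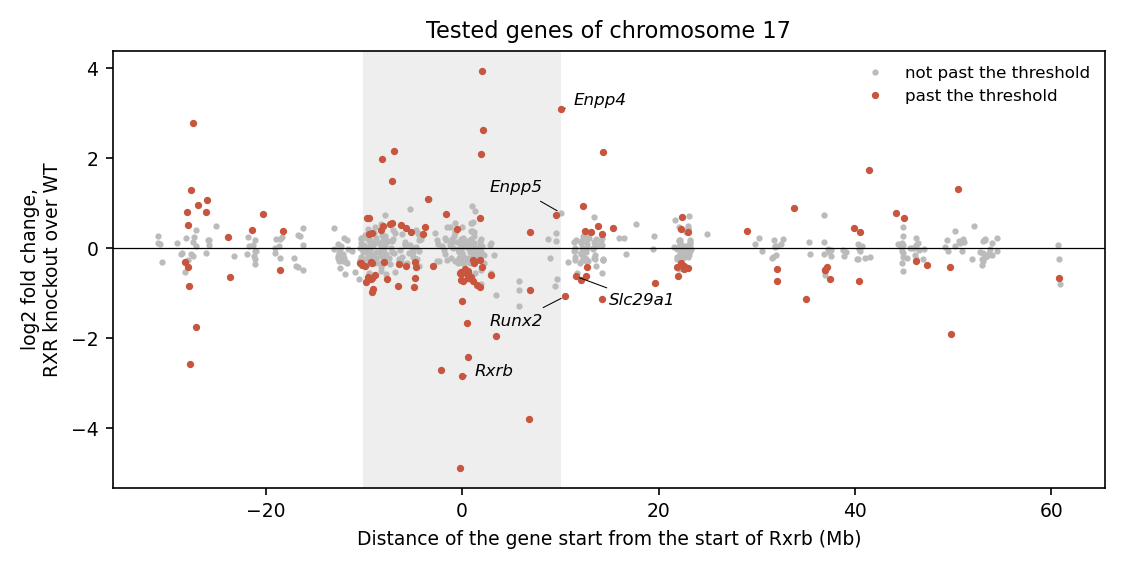
log2 fold change (knockout over WT) of each tested gene of chromosome 17 against the distance of its start from that of Rxrb in Mb, with red points past the threshold and 10 Mb to either side shaded. Enpp4, at 10.1 Mb, lies above its neighbours Enpp5 and Runx2, and points past the threshold occur along the whole chromosome.

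Over the 6 libraries, the genes whose log2 CPM followed Enpp4 most closely were Mtor (Pearson r = 0.999), Sertad2 (0.998) and P2rx7 (0.998). These correlations are a description over 6 libraries in 2 genotypes, and any gene with a clear step between genotypes scores high by this measure. Mtor, which encodes a nutrient-sensing kinase, rose by a log2 fold change of 0.35 and Sertad2, a transcriptional coregulator gene, by 0.54. The call of Mtor was lost without knockout replicate 1 (edgeR adjusted p = 0.0629) or knockout replicate 2 (edgeR adjusted p = 0.0553).

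Entpd1 (ENSMUSG00000048120, chr19:40612366-40741602, plus strand), which encodes CD39, the enzyme that strips phosphates from ATP and ADP down to AMP, was the most abundant ectonucleotidase of the set. It read 117.5, 120.2 and 143.5 CPM in the WT libraries and 118.1, 121.1 and 103.9 CPM in the knockout libraries. The ranges overlapped. The log2 fold change was -0.15 (SE 0.0978), with a 95% interval from -0.37 to 0.06 that leaves room for a modest fall and for hardly any rise. Without WT replicate 3 it was -0.06, and without knockout replicate 3 it was -0.09.

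Nt5e (ENSMUSG00000032420, chr9:88327197-88372092, plus strand) encodes CD73, which turns AMP into adenosine, the step after CD39. Its reads numbered 3, 7 and 8 in the WT libraries and 6, 2 and 11 in the knockout libraries, or 0.582 ± 0.305 and 0.342 ± 0.259 CPM. The libraries overlapped, and a difference was not detectable at this depth. The level was 0.297% of that of Entpd1 per length in WT and 0.194% in the knockout.

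The 18 genes listed as ectonucleotidases were not limited to enzymes known to cut nucleotides outside the cell. Their shares in the summed level per length, with Entpd4 counted as 0, show where these changes fall within the list. Entpd1 made up 61.0% ± 2.12 of the sum in WT and 55.9% ± 0.596 in the knockout, Entpd5 16.1% ± 1.23 and 17.8% ± 1.1 (SD, n = 3). Enpp4 went from 0.424% ± 0.128 to 4.03% ± 0.288 and Enpp1 from 3.88% ± 0.143 to 2.31% ± 0.218. The sum itself was 37.2 ± 2.86 CPM per kb in WT and 36.7 ± 2.6 in the knockout. So the step in Enpp4 is large for that gene and small beside the level of Entpd1.

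P2rx4 and P2rx7, the ATP-gated channels that macrophages are best known for, were both higher. P2rx4 (ENSMUSG00000029470), which opens at low ATP, read 254.1, 275.9 and 266.2 CPM in the WT libraries and 376.1, 358.4 and 381.6 CPM in the knockout libraries. P2rx7 (ENSMUSG00000029468), which needs high ATP and is an upstream trigger of the NLRP3 inflammasome, read 63.1, 63.4 and 70.3 CPM in the WT libraries and 97.6, 99.5 and 95.5 CPM in the knockout libraries. For both channels every knockout library lay above every WT library, and libraries of one genotype differed little. Their log2 fold changes were 0.49 (SE 0.0759) and 0.57 (SE 0.0835), or 1.40 and 1.49 times the WT mean.

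The genes of these channels are neighbours on chromosome 5, both on the plus strand, with 16.1 kb from the end of P2rx7 (122643911 to 122691432) to the start of P2rx4 (122707544 to 122729738). Their promoters are shown because the pair moved together. The windows of 250 bases before each RefSeq start are chr5:122707294-122707543 for P2rx4, chr5:122643677-122643926 for the first start of P2rx7 and chr5:122650133-122650382 for its second start, all on the plus strand of GRCm38.p6. Capitals mark TGACCT, the half-site AGGTCA read on the other strand. It lies 151 to 146 bases before the start of P2rx4 and 192 to 187 bases before the second start of P2rx7. Only the exact hexamer was searched. Stretches that differ from it in a letter, such as gggtca in the windows of P2rx4 and the first start of P2rx7, stay in lower case.
P2rx4: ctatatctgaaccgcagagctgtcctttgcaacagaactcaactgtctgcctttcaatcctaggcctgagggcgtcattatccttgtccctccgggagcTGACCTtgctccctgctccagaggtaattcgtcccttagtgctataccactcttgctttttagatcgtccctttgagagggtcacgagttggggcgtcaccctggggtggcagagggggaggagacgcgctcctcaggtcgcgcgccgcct
P2rx7, first start: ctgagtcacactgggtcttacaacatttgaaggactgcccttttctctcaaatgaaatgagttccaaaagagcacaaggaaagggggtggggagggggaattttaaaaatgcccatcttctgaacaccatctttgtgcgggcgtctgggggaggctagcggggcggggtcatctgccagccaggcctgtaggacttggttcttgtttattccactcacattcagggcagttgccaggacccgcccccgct
P2rx7, second start: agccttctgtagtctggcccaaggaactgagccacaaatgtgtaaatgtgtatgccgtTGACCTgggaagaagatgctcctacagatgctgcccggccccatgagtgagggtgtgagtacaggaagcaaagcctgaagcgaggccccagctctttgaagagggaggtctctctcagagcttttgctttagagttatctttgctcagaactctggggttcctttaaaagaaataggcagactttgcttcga

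The half-site was in 3 of the 10 windows of the 8 genes with a RefSeq entry, the last being P2ry12, and in 14.02% of 32851 such windows over all genes or 10.64% of 11845 windows of tested genes. At the second start of P2rx7 and the start of P2ry12, 0 GENCODE transcripts begin. A match describes letters only, and the data do not say which start these cells use. No window is shown for P2ry6 and Adora2a.

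P2ry6 (ENSMUSG00000048779, chr7:100937630-100974649, minus strand), which encodes the receptor for UDP and is known for driving phagocytosis by microglia, was the most abundant of the 10 genes per length. It read 183.0, 173.1 and 190.4 CPM in the WT libraries and 272.0, 267.0 and 264.5 CPM in the knockout libraries. The genotypes were well apart. The log2 fold change was 0.56 (SE 0.0759), 1.47 times the WT mean, close in size to those of the channel genes. Its neighbour on chromosome 7, P2ry2, the receptor gene for ATP and UTP 21.9 kb away, was at 32.5 ± 2.72 and 30.6 ± 2.52 CPM with a log2 fold change of -0.08 (95% interval -0.32 to 0.15). The difference between these neighbours was not tested.

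P2ry12 (ENSMUSG00000036353, chr3:59216272-59262871, minus strand) encodes an ADP receptor known as a marker of microglia, and it was rare in these cells. It read 0.83, 1.83 and 2.87 CPM in the WT libraries and 2.39, 2.58 and 2.83 CPM in the knockout libraries. The WT libraries were spread wide and the highest of all 6 was a WT library. The log2 fold change was 0.42 with a 95% interval from -0.33 to 1.16, and WT reads numbered 66 in all. It was 0.09 without WT replicate 1, 1.0 without WT replicate 3 and 0.21 after thinning, so single WT libraries set it.

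Neither adenosine receptor gene of the set passed the threshold. Adora2b (ENSMUSG00000018500, chr11:62248984-62266453, plus strand), the receptor with low affinity for adenosine, read 15.3, 18.0 and 15.7 CPM in the WT libraries and 12.6, 13.3 and 11.95 CPM in the knockout libraries. Each knockout library lay below each WT library. The log2 fold change was -0.36 (SE 0.122), with a 95% interval for this gene alone from -0.63 to -0.10, and it did not pass the threshold over all genes in any of the 15 alternatives. Adora2a (ENSMUSG00000020178, chr10:75316877-75334784, plus strand), the high-affinity receptor, read 0.934, 2.61 and 1.7 CPM in the WT libraries and 1.45, 1.15 and 1.14 CPM in the knockout libraries. The ranges overlapped. Its log2 fold change was -0.46 with a 95% interval from -1.25 to 0.34. It was -0.14 without WT replicate 2 and -0.74 without WT replicate 1.

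Within each receptor class 1 gene carried most of the signal in both genotypes. P2rx4 made up 76.4% ± 1.19 of the summed level per length of the 7 P2X genes in WT and 74.9% ± 1.15 in the knockout, and P2rx7 22.2% ± 1.19 and 23.1% ± 0.874 (SD, n = 3). The P2X sum went from 49.5 ± 1.72 to 70.7 ± 1.3 CPM per kb. P2ry6 made up 82.8% ± 1.25 and 87.5% ± 0.547 of the P2Y sum, which went from 76.2 ± 2.5 to 106.0 ± 1.82 CPM per kb. Adora2b made up 89.2% ± 1.56 and 86.3% ± 3.23 of the adenosine receptor sum, which was 9.94 ± 1.07 CPM per kb in WT cells and 7.92 ± 0.132 CPM per kb in the knockout.

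The genes that passed differed in how far their fold changes moved with the method, Enpp4 most on the log2 scale. Over 15 alternatives the log2 fold change ran from 2.74 to 3.53 for Enpp4, from 0.52 to 0.62 for P2rx7, from 0.52 to 0.58 for P2ry6, from 0.45 to 0.53 for P2rx4 and from -0.89 to -0.65 for Enpp1. Each of these kept its call in all 15. These refits use the same reads on which Enpp4 was selected, so they describe dependence on the method and add no support.

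**Figure D3:**
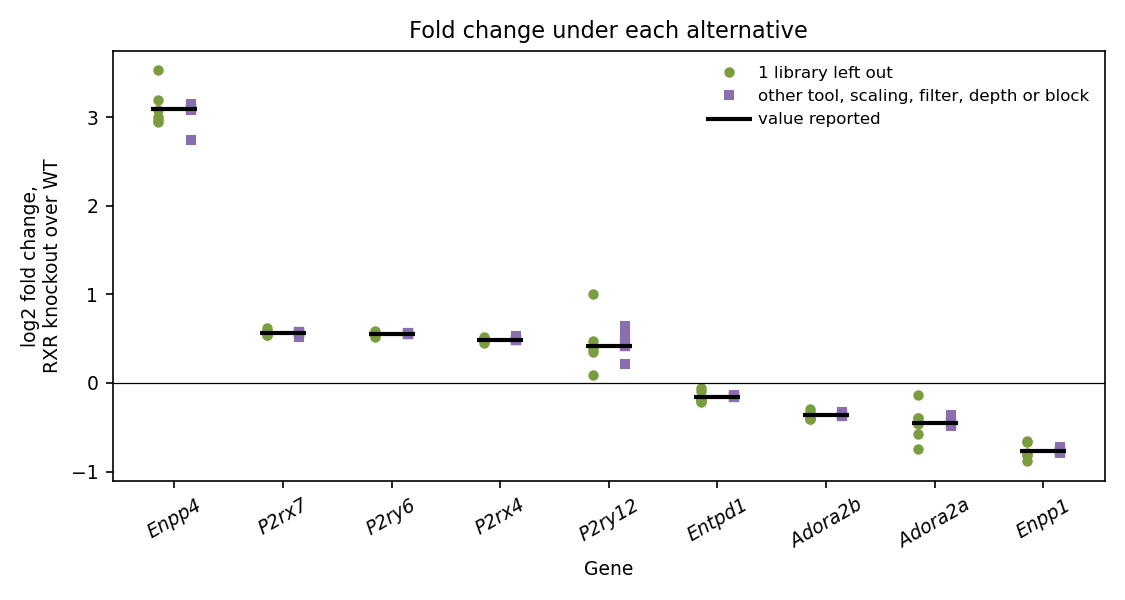
log2 fold change (knockout over WT) of the 9 tested genes, with a black bar for the value reported, green circles for fits with 1 library left out and purple squares for another tool, scaling, filter, depth or the replicate block. P2rx7, P2ry6 and P2rx4 stay between 0.45 and 0.62, and P2ry12 and Adora2a move most relative to their size.

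Other genes that release, break down, sense or take up nucleotides and nucleosides were counted from a list of 50 further genes. Of these, 49 were matched by symbol, and 28 of the matched genes had enough reads. Of the 28, 4 rose, 3 fell and 21 did not pass, with a median log2 fold change of 0.14 against -0.00476 over all tested genes. Over all tested genes 9.77% were called higher and 9.61% lower, so a count of 7 calls among 28 genes lies near the background and is no result about the list. The number that rose was 2 without WT replicate 1, 2 or 3 and 1 without knockout replicate 1 or 2. It was also 1 after thinning every library to the smallest total count. P2rx5, a channel gene with 23 reads in WT and 95 in the knockout, rose by 1.14 (SE 0.353, edgeR adjusted p = 0.0394), a call lost without any 1 of the WT libraries or without knockout replicate 1 or 2. It was also lost with DESeq2 (adjusted p = 0.09), with limma-voom (adjusted p = 0.0515) and with no filter on low counts (edgeR adjusted p = 0.0831).

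Receptor genes outside the 10 moved both ways. P2ry1, an ADP receptor gene, rose from 9.85 ± 1.17 to 13.7 ± 0.425 CPM (by 0.50 on the log2 scale, edgeR adjusted p = 0.021), with 23.1% of its exon length overlapped by a gene on the other strand, so its reads are uncertain. That call was lost without WT replicate 3, without knockout replicate 1 or 2, and after thinning (edgeR adjusted p = 0.0639). P2ry14, the receptor gene for UDP-sugars, fell from 11.99 ± 3.06 to 7.6 ± 1.44 CPM (-0.68, edgeR adjusted p = 0.0297). The genotypes overlapped, and the gene no longer passed when WT replicate 1 or 3 or knockout replicate 2 or 3 was left out, nor after thinning (edgeR adjusted p = 0.101) or with limma on the authors' log2 values (adjusted p = 0.0523). Adora3, an adenosine receptor gene with 20.9% of its exon length overlapped by Tmigd3, did not pass (0.40, SE 0.31).

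Genes of nucleotide release showed no call. Of 8 tested, 0 rose and 0 fell by edgeR (adjusted over all genes), where 19.4% of all tested genes were called. Panx1, which encodes the ATP-releasing channel pannexin 1, had the highest CPM of them, while Ank was higher per length. Panx1 averaged 104.5 ± 7.57 CPM in WT cells and 102.8 ± 3.35 CPM in knockout cells (log2 fold change -0.02, SE 0.084). Among the other genes listed as ectonucleotidases, a list not limited to enzymes of the cell surface, 0 of 5 passed. Of these, Entpd5 was at 36.0 ± 0.0953 and 39.3 ± 2.85 CPM. At an unadjusted edgeR p under 0.05 the counts were 1 of 8 and 0 of 5, and DESeq2 and both limma fits called 0 in either group. Beside the 19.4% over all tested genes, 0 calls among so few genes are no result about either group. Entpd4 is listed at 0 in all libraries, as is its near-identical copy Entpd4b, so its level is uncertain.

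Nucleoside handling genes gave the calls of this wider list that held in all 15 alternatives, those of Slc29a1, Slc28a2 and Bst1. Slc29a1, the equilibrative transporter ENT1 that carries adenosine across the membrane, read 92.2, 96.8 and 110.7 CPM in the WT libraries and 69.5, 67.2 and 58.0 CPM in the knockout libraries. The genotypes did not overlap, and the log2 fold change was -0.62 (SE 0.1, edgeR adjusted p = 8.51e-04). Like Enpp4 this gene lies on chromosome 17, with its start 11.6 Mb from that of Rxrb, and 6.86% of its exon length is shared with an overlapping gene. Slc28a2, the sodium-coupled transporter that brings purine nucleosides into the cell, rose from 15.9 ± 2.74 to 25.5 ± 0.632 CPM (0.66, edgeR adjusted p = 0.00303). Slc29a3, a lysosomal nucleoside transporter gene, rose by 0.39 (edgeR adjusted p = 0.0288), and it no longer passed when WT replicate 1 or 2, or knockout replicate 1 or 2, was left out, nor after thinning (edgeR adjusted p = 0.0501).

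Bst1, which encodes CD157, a surface enzyme that uses NAD, had the most negative log2 fold change among the tested genes of this wider list. It read 58.7, 55.3 and 51.4 CPM in the WT libraries and 28.2, 28.8 and 26.0 CPM in the knockout libraries. The log2 fold change was -0.99 (SE 0.096, edgeR adjusted p = 1.6e-05). Of the 8 neutrophil markers, 3 fell as well, Elane from 29.8 ± 5.33 to 13.9 ± 1.9 CPM, Mpo from 54.3 ± 2.9 to 29.5 ± 1.81 CPM and Ngp from 377.2 ± 19.3 to 312.9 ± 24.5 CPM. The other 5 did not pass, among them S100a8 (-0.08), Camp (-0.05) and Ltf (0.18 on the log2 scale), and the part of these cells in the Bst1 difference was not tested. Cd38, the neighbour and relative of Bst1, had 15 reads in WT and 7 in the knockout, too few for the fit.

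**Figure D4:**
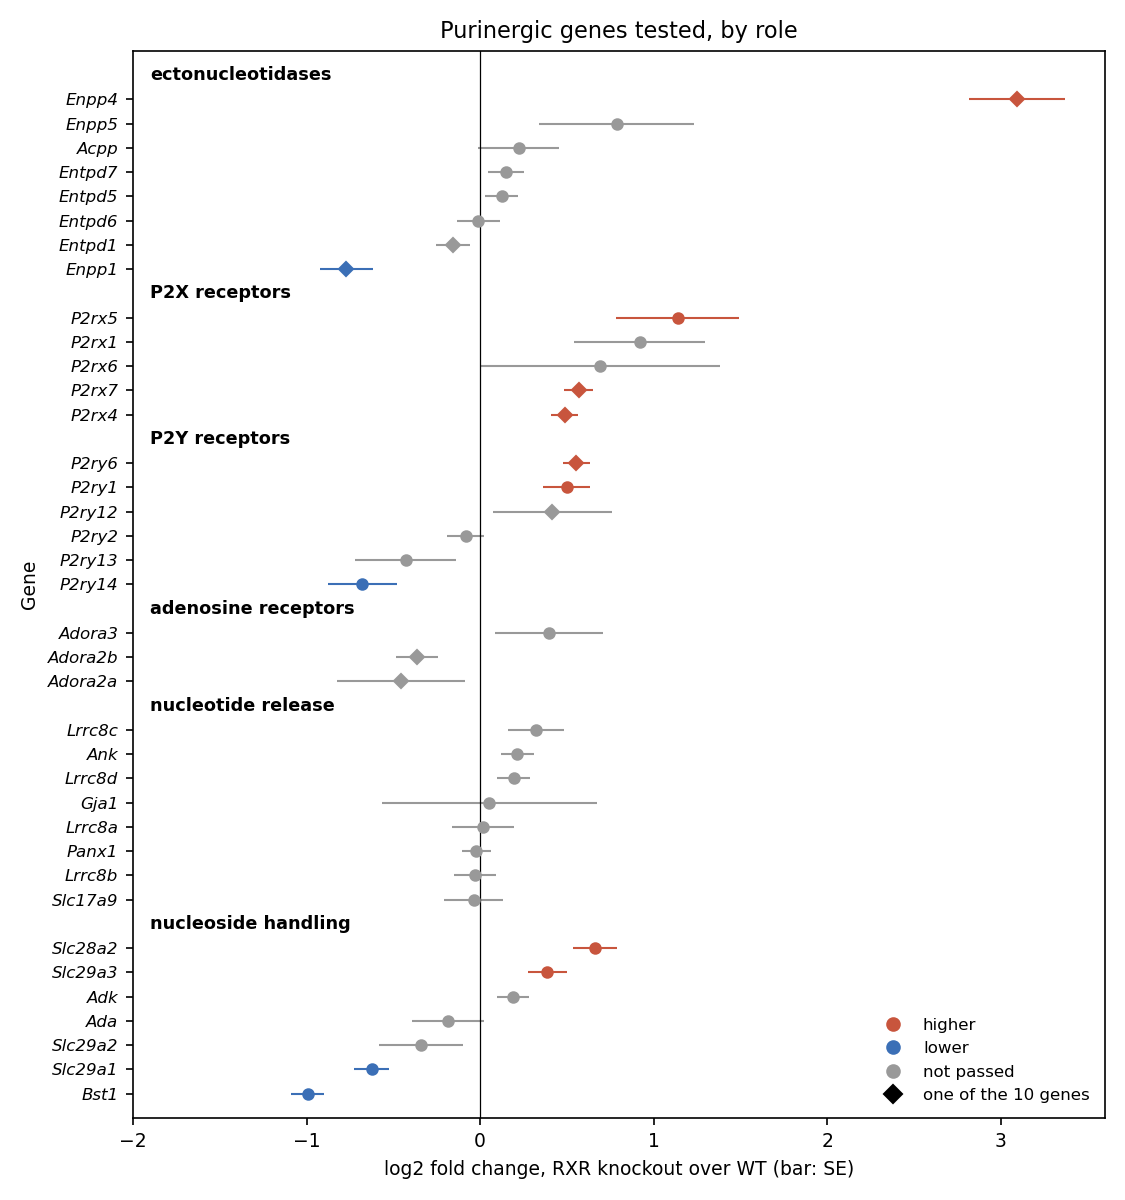
log2 fold change (knockout over WT, bars are SE) of every tested gene of the purinergic list by role, with diamonds for the 10 genes and colours for genes higher, lower or not past the threshold. Of 7 tested nucleoside handling genes 2 rose and 2 fell, and 0 of 8 nucleotide release genes passed, against 19.4% of all tested genes called. Differences between the roles were not tested.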

How the data were processed

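RNA was read in 6 libraries, 3 WT and 3 knockout, made from 100 ng of total RNA with the NEBNext Ultra II kit, per the labels' protocols. TopHat2 2.0.7, DESeq and the builds mm10 and GRCm38 are named in the submitters' processing notes. Which program and annotation gave the counts, and whether strand was used, is not given in the sources used here. The authors deposited whole-number counts per Ensembl gene, which were tested, and log2 values, which served as an alternative. These deposited log2 values were taken as logs of normalized counts. Symbols were matched for 45106 of 45193 genes.

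The test was that of edgeR 4.0.16 in R 4.3.3, with TMM factors, filterByExpr (minimum count 10, minimum total 15), a robust quasi-likelihood fit of genotype alone and Benjamini-Hochberg adjustment over 12011 genes at 0.05. The script was also tested on simulated data. SE is the absolute log2 fold change over the square root of F, and each 95% interval uses the t quantile of the fit's degrees of freedom, unadjusted. CPM are scaled on reads in tested genes, and per-kb levels use merged GENCODE M21 exons, as do positions. Likeness to Enpp4 used log2(CPM + 0.5).

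The 10 genes and all lists were chosen with earlier results of these data known. Named besides the 10 were Rxra, Rxrb and Lyz2, in each role list up to 3 genes past the threshold per direction with the smallest adjusted p (or the most abundant where none passed), tested genes within 500 kb of Enpp4, and the 3 genes most correlated with it among annotated, non-pseudogene genes with an average log2 CPM of at least 2. P2ry2, Entpd4, Cd38, Ank and the single cell type markers were named outside this rule after their values were seen. Alternatives were RLE and upper-quartile factors, no filter, a filter keeping genes with 3 or more libraries at CPM 1 or above, DESeq2 1.42.0, limma-voom (limma 3.58.1), limma on log2(authors' linear value + 1), thinning to 7880320 reads, a replicate block, and each library left out in turn.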

Additional observations from a re-analysis of the deposited data

How the results depend on the processing

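The counts of the 10 genes called, 4 higher and 1 lower, were the same in all 15 alternatives. The 9 tested genes kept their direction and their side of the threshold in each. All alternatives refit the same reads, so this describes dependence on the method and is no support for the differences. Of 50 further purinergic genes 4 rose; this became 1 with the replicate block and 1 with thinned counts, and ran from 1 to 4 with each library left out. All genes called, 2327, became 1375 with the replicate block and ran from 1286 to 2607 with each library left out. The block fits more terms to the same libraries, which leaves fewer degrees of freedom, and fewer libraries enter the other fits. How much of these changes follows from this was not tested. Replicate numbers did not pair the libraries (correlations of the deviations of same-numbered libraries 0.0528, -0.275 and -0.259), and the block changed no call among the 10 genes. Of the other genes named, Mtor (edgeR adjusted p = 0.0672), P2rx5 (0.1), P2ry1 (0.0697), P2ry14 (0.0672) and Slc29a3 (0.0949) no longer passed with the block. For genes named singly, 380 values kept their call and direction and 30 lost the call. Directions turned for 2 genes near 0: Panx1 ranged from -0.0875 to 0.00677 with each library left out, above 0 where WT replicate 1, WT replicate 2 or knockout replicate 1 was missing, and Slc25a27 from -0.206 to 0.459, below 0 where WT replicate 2 or knockout replicate 2 was missing. With no filter on low counts the median log2 fold change of all genes was 0.123, and Nt5e then had a value of -0.76. Depth limits Nt5e (18 reads in WT and 19 in knockout libraries) and the WT level of Enpp4 (26 reads).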
